A study of Homo sapiens with 12 samples.

Results

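The genes described here encode the nuclear subunits of oxidative phosphorylation, measured in H929 cells, a human multiple myeloma cell line that carries the t(4;14) translocation. Members were all probe sets whose platform annotation gives a single nuclear gene with a symbol of complex I (NDUFA, NDUFB, NDUFC, NDUFS or NDUFV), complex II (SDHA to SDHD), complex III (UQCR or CYC1), complex IV (COX4 to COX8) or complex V (ATP5F, ATP5M or ATP5P). This gave 149 of the 54675 probe sets and 77 of the 19775 genes with a single symbol. Of these, 135 probe sets and 75 genes passed a filter on low values, namely 33 of 33 genes of complex I, 3 of 3 of complex II, 7 of 7 of complex III, 16 of 17 of complex IV and 16 of 17 of complex V. The genes that did not pass were COX7A1 and ATP5MF. Probe sets shared by several symbols were left out, which removed NDUFS5, NDUFS8, NDUFC2 and UQCRH, and SDHB and UQCRFS1 were not analysed here. A shared probe set of ATP5MF was left out too, so ATP5MF failed the filter on its remaining probe set only. The level read by that shared probe set was not tested.

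Cells were cultured for 24 hours with 250 nM CHR-3996 together with 1 µM tosedostat (CHR-2797), with 250 nM CHR-3996 alone, with 1 µM tosedostat alone, or were left untreated, with 3 arrays in each of the 4 groups. CHR-3996 inhibits histone deacetylases and tosedostat inhibits aminopeptidases. All arrays come from a single cell line at a single time and dose, which limits the groups as a model of myeloma. The labels call the 3 arrays of a group biological replicates, without saying what separates them, and a p-value measures the spread between these arrays.

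Oxidative phosphorylation takes place in the inner mitochondrial membrane. Complexes I and II pass electrons from NADH and from succinate to ubiquinone, complex III passes them on to cytochrome c and complex IV to oxygen, and complex V (ATP synthase) uses the proton gradient built up on the way to make ATP. Most subunits are encoded in the nucleus and imported, a small set of core subunits of complexes I, III, IV and V is encoded in mitochondrial DNA, and assembly needs a further set of proteins that are not part of the finished complexes. Plasma cells, from which myeloma arises, spend much ATP on making antibody.

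The arrays are described by log2 expression values, and a difference of 1 on this scale is a change of 2-fold. Replicate arrays correlated with r between 0.978 and 0.983 over the probe sets that passed the filter. The median value of an array over all probe sets averaged 5.29 ± 0.02 in combination arrays, 5.26 ± 0.03 in CHR-3996 arrays, 5.05 ± 0.01 in tosedostat arrays and 5.04 ± 0.04 in untreated arrays (SD, n = 3 each), so arrays with CHR-3996 stood higher as a whole. The difference between the 3′ and 5′ control probe sets of beta-actin, a sign of RNA length, was 1.24 ± 0.15 in combination arrays, 1.59 ± 0.17 in CHR-3996 arrays, 2.09 ± 0.11 in tosedostat arrays and 2.14 ± 0.17 in untreated arrays, and that of GAPDH lay between 0.35 and 0.45 in all groups. The part of these differences in the results was not tested. All 8 plasma cell markers looked for passed the filter. Of these 1 was higher and 4 lower in the combination (median -0.29) and 0 higher and 5 lower with CHR-3996 (median -0.35). That is 62.5% in both, against 46.1% and 45.1% of all probe sets called. SDC1 changed by -1.99 and -1.82. Of 11 markers of T cells, myeloid, stromal and red cells 5 passed, and their summed linear value ranged over 462 to 729 in combination arrays, 513 to 653 in CHR-3996 arrays, 300 to 380 in tosedostat arrays and 334 to 388 in untreated arrays. LYZ, HBB and CD2 were higher in combination and in CHR-3996 arrays (CD2 was not called with quantile normalization or equal medians), and the part of all these markers in the results was not tested.

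In the values as deposited, most of the 75 genes were not called with CHR-3996. Those called lower were genes of complexes I, III, IV and V, and a few genes were called higher. With equal array medians 45 genes were called lower with CHR-3996, and of the higher calls only that of COX8C remained. None of the brightest probe sets of the 75 genes was called with tosedostat. In CHR-3996 arrays 6 genes were called higher and 18 lower than in untreated arrays (limma, adjusted p under 0.05), or 32% of the members, against 45.1% of all probe sets tested, 29.4% higher and 15.7% lower. In combination arrays 7 genes were called higher and 14 lower than in untreated arrays, or 28%, against 46.1% of all probe sets, 32% higher and 14.1% lower. The genes called higher include COX8C in both comparisons and COX7B2 with CHR-3996. These passed the filter only (COX8C) or mainly (COX7B2) through arrays with CHR-3996. In tosedostat arrays 0 genes were called in either direction, 0 genes had an unadjusted p under 0.05, and 3.68% of all probe sets were called, 3.23% higher and 0.451% lower. The median log2 fold change of the 75 genes was -0.06 in the combination, -0.09 with CHR-3996 and 0.03 with tosedostat, beside medians over all probe sets of 0.14, 0.11 and 0.03. Of the 75 intervals (95%) under tosedostat, 73 lay within 0.5 of 0 on the log2 scale, against 48 in the combination and 45 with CHR-3996. The arrays of the 2 groups did not overlap for 41 genes in the combination, where 55% of all probe sets did not overlap. With CHR-3996 this held for 34 genes, beside 53% of all probe sets, and with tosedostat for 18 genes, beside 24.6%.

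**Figure D1:**
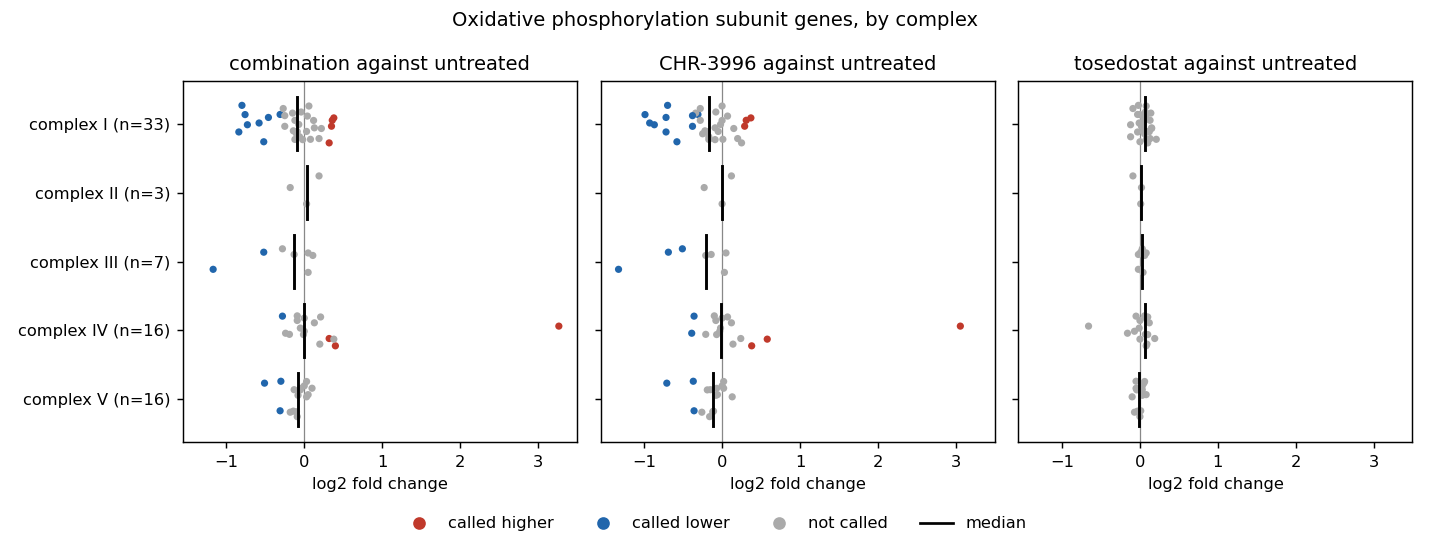
Log2 fold change of each of the 75 subunit genes (1 point per gene, brightest probe set, spread vertically for clarity) for the combination, CHR-3996 and tosedostat, each against untreated cells, by complex; black bars are medians and colours mark genes called at adjusted p under 0.05. The lowest point is CYC1 of complex III and the highest is COX8C of complex IV, and no gene is coloured under tosedostat. COX8C passed the filter only through arrays with CHR-3996.

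The split between higher and lower depended on how arrays were scaled. The share of all probe sets called under each scaling alternative is not given here. Counts under these alternatives, also those by complex, thus do not single out the subunits. With all arrays set to equal medians, 1 gene was higher and 38 lower in the combination, and 1 higher and 45 lower with CHR-3996. This scaling moved the median of all probe sets to -0.10 in the combination and -0.11 with CHR-3996, so that the subunit genes lay 0.20 below it in both, as they did in the values as deposited. With quantile normalization 9 genes were higher and 22 lower in the combination, and 9 higher and 21 lower with CHR-3996, and here the member medians of -0.06 and -0.06 lay 0.06 and 0.04 above those of all probe sets (-0.12 and -0.10). The 14 genes called lower in the combination and the 18 called lower with CHR-3996 were still called lower under both scalings. Of the genes called higher, only COX8C was still called with equal medians. COX8C passed the filter only through arrays with CHR-3996, so its call was fixed by that choice and lends no support. Leaving out any single array, 13 of the 21 calls in the combination and 16 of the 24 with CHR-3996 held each time. Without untreated replicate 1 the genes called higher numbered 3 in the combination and 3 with CHR-3996, without CHR-3996 replicate 2 they numbered 3 with CHR-3996, and without CHR-3996 replicate 3 or untreated replicate 2 they numbered 4.

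Subunit probe sets are among the bright ones on the array. The share of all probe sets called was largest at middle levels and smaller at both ends of the scale, with 28.3% in the combination and 26.9% with CHR-3996 between 4 and 6. Over 11, where 64 of the 75 genes lie, 18 genes (28.1%) were called in the combination and 19 (29.7%) with CHR-3996, against 48.9% and 50.9% of 2583 probe sets. Of the 75 genes, 51 had a mean value over 12, and of these 13 (25.5%) were called in the combination and 13 (25.5%) with CHR-3996. Among all 1075 probe sets over 12, 37% were called in the combination and 39.1% with CHR-3996. Over 13, 2 of 11 genes were called in each comparison, against 15.9% of 327 probe sets in the combination and 17.4% with CHR-3996. With tosedostat 2.13% of all probe sets over 11, 1.21% over 12 and 0.612% over 13 were called, beside 0 of the subunit genes. The median difference of all probe sets over 12 was -0.03 in the combination and -0.04 with CHR-3996. Nearness of the brightest values to the top of the scanner's range was not tested.

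**Figure D2:**
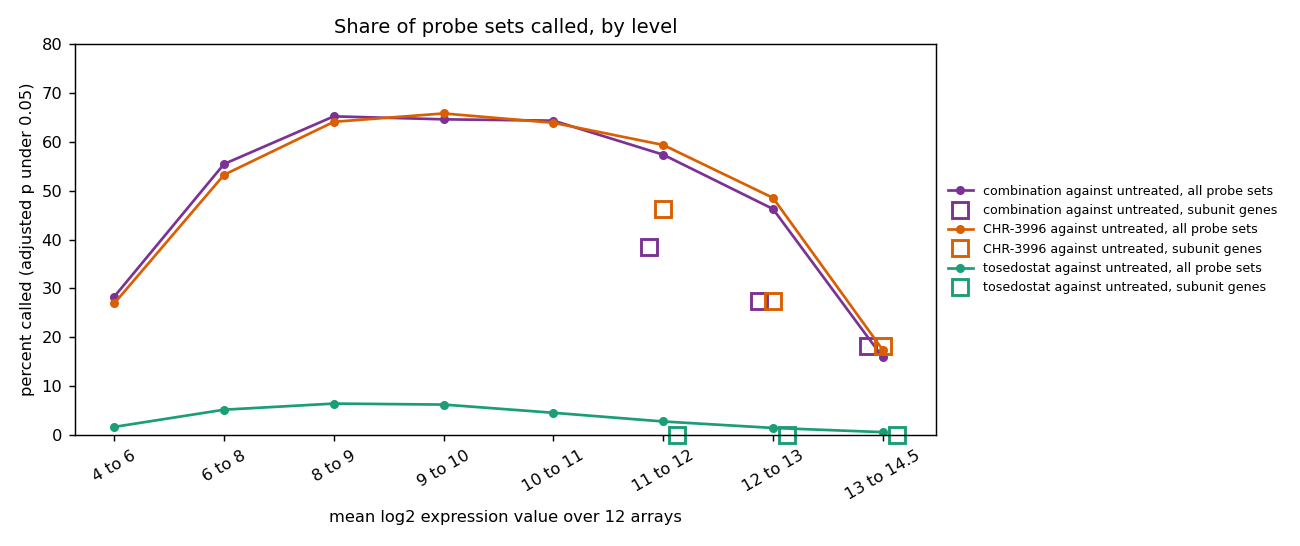
Percent of probe sets called at adjusted p under 0.05 (vertical axis) by mean log2 expression value over 12 arrays (horizontal axis, bins of unequal width), for the combination, CHR-3996 and tosedostat against untreated cells; lines are all probe sets and squares are the subunit genes in bins that hold at least 10 of them. The lines fall over the last bins, where 64 of the 75 subunit genes lie, and the squares of the combination and CHR-3996 lie below their lines between 11 and 13.

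Promoters of 65 of the 75 genes were found in RefSeq (GRCh38.p14), taken from 250 bases before to 50 after the transcription start, and were searched on both strands for motifs named for NRF1 (GCGCA, any base, then GCGC), ETS factors such as GABPA (CCGGAAG) and YY1 (AAGATGGC). These factors are known regulators of respiratory chain genes. The ETS letters end in AAG, with which the YY1 letters begin, so matches to these motifs can overlap. The NRF1 motif was in 16 of 65 promoters (24.6%) against 9.66% of 15842 protein coding genes, the ETS motif in 19 (29.2%) against 16.5%, and the YY1 motif in 11 (16.9%) against 4.66%. Among the 16 genes lower with CHR-3996 that have a promoter, 3 held the NRF1 motif, 2 the ETS motif and 5 the YY1 motif, and among the 43 that were not called 12, 16 and 6 did. The 5 promoters below, with the motif in capitals, belong to 3 genes lower and 2 higher with CHR-3996. Of the 2, COX8C passed the filter only through arrays with CHR-3996. NDUFA6 holds the YY1 motif at position 25 from the start, UQCR10 the NRF1 motif at -8, ATP5MC1 none of the 3, COX6A1 the ETS motif on the reverse strand at -16, and COX8C the NRF1 motif on the reverse strand at -15. A match is a stretch of letters and shows no binding.
NDUFA6, chr22:42090723-42091022, minus strand: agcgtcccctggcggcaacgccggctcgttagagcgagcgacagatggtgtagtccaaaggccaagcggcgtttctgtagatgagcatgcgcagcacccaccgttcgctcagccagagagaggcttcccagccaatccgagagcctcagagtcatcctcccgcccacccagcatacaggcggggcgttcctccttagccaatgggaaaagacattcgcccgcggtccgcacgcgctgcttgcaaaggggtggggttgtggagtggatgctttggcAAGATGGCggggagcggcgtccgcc
UQCR10, chr22:29767119-29767418, plus strand: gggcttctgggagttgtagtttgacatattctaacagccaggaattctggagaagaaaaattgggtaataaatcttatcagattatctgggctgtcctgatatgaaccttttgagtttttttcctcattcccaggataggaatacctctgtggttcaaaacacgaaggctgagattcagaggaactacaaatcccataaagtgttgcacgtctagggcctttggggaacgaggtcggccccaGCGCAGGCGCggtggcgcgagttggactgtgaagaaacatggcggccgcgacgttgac
ATP5MC1, chr17:48892537-48892836, plus strand: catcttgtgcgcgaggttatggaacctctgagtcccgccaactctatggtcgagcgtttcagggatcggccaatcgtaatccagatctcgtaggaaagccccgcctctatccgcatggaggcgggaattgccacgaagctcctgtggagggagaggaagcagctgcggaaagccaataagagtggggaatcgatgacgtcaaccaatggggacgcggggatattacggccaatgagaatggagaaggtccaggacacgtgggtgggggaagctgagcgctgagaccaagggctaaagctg
COX6A1, chr12:120437863-120438162, plus strand: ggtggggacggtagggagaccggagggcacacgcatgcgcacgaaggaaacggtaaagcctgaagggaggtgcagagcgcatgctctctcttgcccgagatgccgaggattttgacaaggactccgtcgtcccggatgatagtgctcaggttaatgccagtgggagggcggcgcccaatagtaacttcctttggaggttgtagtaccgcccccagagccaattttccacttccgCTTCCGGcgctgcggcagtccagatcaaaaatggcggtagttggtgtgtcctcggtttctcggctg
COX8C, chr14:93346932-93347231, plus strand: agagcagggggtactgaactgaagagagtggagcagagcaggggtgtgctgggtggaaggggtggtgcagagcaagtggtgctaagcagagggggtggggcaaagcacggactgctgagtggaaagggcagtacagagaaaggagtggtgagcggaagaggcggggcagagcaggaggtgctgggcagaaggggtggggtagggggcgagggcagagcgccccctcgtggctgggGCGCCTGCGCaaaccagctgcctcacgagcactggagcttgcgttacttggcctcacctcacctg

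Complex I, the NADH dehydrogenase, is the largest complex. Of its 33 genes 4 were higher and 8 lower in the combination (36.4%, median -0.09), against 46.1% of all probe sets called. With CHR-3996 3 were higher and 10 lower (39.4%, median -0.17), against 45.1%. None was called with tosedostat (median 0.06). The genes that were lower came from the matrix arm, which oxidises NADH and reduces ubiquinone, and from the far end of the membrane arm, which pumps protons. With equal array medians 0 genes of complex I were higher and 15 lower in the combination, and 0 higher and 20 lower with CHR-3996.

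NDUFA6 (probe set 202001_s_at, chromosome 22), an accessory subunit that binds the acyl carrier protein NDUFAB1, had the largest fall of complex I with CHR-3996. It measured 11.88, 11.91 and 11.87 in combination arrays, 11.34, 11.86 and 11.76 in CHR-3996 arrays, 12.66, 12.60 and 12.65 in tosedostat arrays and 12.64, 12.61 and 12.68 in untreated arrays. All 6 arrays with CHR-3996 lay below all 6 without it. The log2 fold change was -0.76 (SE 0.13, limma adjusted p = 0.000586) in the combination and -0.99 (SE 0.13, adjusted p = 8.72e-05) with CHR-3996, and another probe set (202000_at) gave -0.71 and -1.02. Its partner NDUFAB1, the mitochondrial acyl carrier protein, fell by 0.38 with CHR-3996 (adjusted p = 0.0124), and the difference was -0.25 in the combination (adjusted p = 0.0731).

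NDUFA9 (208969_at, chromosome 12) sits where the matrix and membrane arms meet. It measured 10.86, 10.77 and 10.98 in combination arrays, 10.16, 10.72 and 10.69 in CHR-3996 arrays, 11.37, 11.38 and 11.58 in tosedostat arrays and 11.36, 11.41 and 11.58 in untreated arrays. CHR-3996 replicate 1 was the lowest array by some way, and the groups with and without CHR-3996 did not overlap. The log2 fold change was -0.58 (SE 0.16, adjusted p = 0.00999) in the combination and -0.93 (SE 0.16, adjusted p = 0.000512) with CHR-3996. NDUFS3 (201740_at, chromosome 11), a core subunit of the ubiquinone-reducing module, measured 10.91, 10.95 and 11.14 in combination arrays, 10.56, 11.07 and 10.94 in CHR-3996 arrays, 11.61, 11.54 and 11.68 in tosedostat arrays and 11.69, 11.67 and 11.84 in untreated arrays. Again no treated array with CHR-3996 reached an array without it, and the fold changes were -0.73 (SE 0.14, adjusted p = 0.00121) and -0.87 (SE 0.14, adjusted p = 0.000358).

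In the same arm NDUFS7, the core subunit that carries the last iron-sulfur cluster before ubiquinone, fell by 0.38 with CHR-3996 (adjusted p = 0.0226), and the difference in the combination was -0.25 (adjusted p = 0.118). The call with CHR-3996 was lost when CHR-3996 replicate 1, untreated replicate 1 or untreated replicate 2 was left out. NDUFS6 and NDUFV3, accessory subunits of the NADH-oxidising module, changed by -0.52 and -0.46 in the combination and by -0.58 and -0.72 with CHR-3996, and all 4 of these changes were called. The core subunits of that module were not called. NDUFS1 differed by -0.12 in the combination and -0.28 with CHR-3996, NDUFV1 by 0.22 and 0.15, and NDUFV2 by -0.12 and -0.17. Within a single module some subunits were thus called lower and others not, and the difference between such subunits was not tested.

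At the far end of the membrane arm the accessory subunits NDUFB2, NDUFB7 and NDUFB10 were lower. NDUFB2 (218201_at, chromosome 7) measured 11.41, 11.49 and 11.25 in combination arrays, 11.32, 11.61 and 11.56 in CHR-3996 arrays, 12.21, 12.29 and 12.06 in tosedostat arrays and 12.19, 12.34 and 12.13 in untreated arrays. The arrays with CHR-3996 lay below all others, with log2 fold changes of -0.84 (SE 0.12, adjusted p = 0.000194) in the combination and -0.72 (SE 0.12, adjusted p = 0.000552) with CHR-3996. Its other probe sets gave -0.84 and -0.74 (218200_s_at) and -0.66 and -0.70 (240391_at), all called. NDUFB7 (202839_s_at, chromosome 19) measured between 8.87 and 9.01 in combination arrays, 8.94, 9.14 and 9.12 in CHR-3996 arrays, 9.70, 9.77 and 9.76 in tosedostat arrays and 9.64, 9.79 and 9.85 in untreated arrays. Its groups did not overlap either, with -0.80 (SE 0.10, adjusted p = 8.34e-05) in the combination and -0.70 (SE 0.10, adjusted p = 0.000238) with CHR-3996. NDUFB10 changed less, by -0.31 in both comparisons, and either call was lost when any of 5 single arrays was left out.

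Subunits of the same arm also rose. NDUFB3 (203371_s_at, chromosome 2) measured 13.09, 13.01 and 13.10 in combination arrays, 13.08, 13.09 and 13.02 in CHR-3996 arrays, 12.71, 12.80 and 12.72 in tosedostat arrays and 12.66, 12.71 and 12.69 in untreated arrays. All arrays with CHR-3996 lay above all arrays without it, with 0.38 (SE 0.09, adjusted p = 0.00486) in the combination and 0.37 (SE 0.09, adjusted p = 0.00528) with CHR-3996. NDUFB1 rose by 0.36 in the combination and 0.31 with CHR-3996, and NDUFA2, of the NADH-oxidising module, by 0.35 and 0.29. NDUFB6 rose by 0.32 in the combination (adjusted p = 0.0187), and its difference of 0.25 with CHR-3996 was not called (adjusted p = 0.0625). Leaving out untreated replicate 1 ended the calls of NDUFA2 and NDUFB1 in both comparisons and that of NDUFB6, and with equal array medians none of the 4 genes was called higher.

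Complex II, succinate dehydrogenase, also works in the citrate cycle. None of the brightest probe sets of its 3 genes was called against untreated cells by limma, and none had an unadjusted p under 0.05. Of 7 kept probe sets of SDHC, 2 were called higher in the combination and with CHR-3996, and 1 with tosedostat. Of 2 of SDHD, 1 was called lower in the combination. SDHA, which carries the flavin, measured 12.54, 12.53 and 12.64 in combination arrays, 12.35, 12.64 and 12.49 in CHR-3996 arrays, 12.32, 12.28 and 12.27 in tosedostat arrays and 12.37, 12.37 and 12.39 in untreated arrays. The differences from untreated arrays were 0.19 (95% interval -0.03 to 0.42) in the combination, 0.12 (-0.11 to 0.34) with CHR-3996 and -0.09 (-0.31 to 0.14) with tosedostat, and the combination was 0.28 higher than tosedostat, which was called. The membrane anchors SDHC and SDHD differed by 0.03 and -0.18 in the combination and by 0.00 and -0.23 with CHR-3996. With equal array medians 1 of the 3 genes was called lower in the combination and 1 with CHR-3996. Without CHR-3996 replicate 2, SDHD was called lower with CHR-3996 (-0.31, adjusted p = 0.0327).

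In complex III, the cytochrome bc1 complex, 0 of 7 genes were higher and 2 lower in the combination (28.6%, median -0.13). With CHR-3996 0 were higher and 3 lower (42.9%, median -0.21). Of all probe sets 46.1% and 45.1% were called, and of those with a mean over 12, 37% and 39.1%. The share with CHR-3996 thus lay near these, and 7 genes are few. CYC1 (201066_at, chromosome 8) encodes cytochrome c1, which hands electrons to cytochrome c, and fell more than any other of the 75 genes. It measured 11.31, 11.32 and 11.48 in combination arrays, 10.89, 11.40 and 11.34 in CHR-3996 arrays, 12.56, 12.37 and 12.63 in tosedostat arrays and 12.54, 12.45 and 12.64 in untreated arrays. The gap between arrays with and without CHR-3996 was wider than the spread within any group. The log2 fold change was -1.17 (SE 0.15, adjusted p = 5.94e-05) in the combination, -1.33 (SE 0.15, adjusted p = 2.33e-05) with CHR-3996 and -0.02 (SE 0.15, adjusted p = 0.971) with tosedostat. CYC1 was the only gene of the 75 called at least 2-fold lower, and it was so in both comparisons.

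UQCR10 (218190_s_at, chromosome 22), a small membrane subunit of the complex, measured 11.98, 11.81 and 11.72 in combination arrays, 11.52, 11.82 and 11.66 in CHR-3996 arrays, 12.41, 12.39 and 12.29 in tosedostat arrays and 12.36, 12.39 and 12.32 in untreated arrays. The groups with and without CHR-3996 did not overlap, with -0.52 (SE 0.11, adjusted p = 0.00296) in the combination and -0.69 (SE 0.11, adjusted p = 0.000466) with CHR-3996. Another probe set (228142_at), with values between 6.88 and 7.49 on all arrays, gave 0.13 and 0.00 and was not called. UQCRC1, a core protein of the complex, fell by 0.51 with CHR-3996 (adjusted p = 0.015, and 0.0508 without untreated replicate 3), and its difference in the combination was -0.28 (adjusted p = 0.143). The brightest probe sets of UQCRB, UQCR11, UQCRQ and UQCRC2 were not called. Their differences lay between -0.13 and 0.11 in the combination and between -0.21 and 0.05 with CHR-3996. Of their other probe sets, 2 of UQCRB were called higher and 1 of UQCR11 lower in both comparisons. A further 1 of UQCRC2 was called lower in the combination.

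In complex IV, cytochrome c oxidase, 3 of 16 genes were higher and 1 lower in the combination (25%). With CHR-3996 3 were higher and 2 lower (31.2%, median -0.01). Both shares lay below the 46.1% and 45.1% of all probe sets called. Many of its subunits exist as a common isoform and a tissue isoform. COX8C (231487_at, chromosome 14), the isoform known from testis, had low values wherever CHR-3996 was not given. It measured 5.82, 6.49 and 5.72 in combination arrays, 5.51, 6.17 and 5.71 in CHR-3996 arrays, 2.62, 2.68 and 0.93 in tosedostat arrays and 3.09, 1.87 and 3.26 in untreated arrays. All arrays without CHR-3996 were below the 40th percentile of their array, which lay between 4.41 and 4.47, and all arrays with it were above. The gene thus passed the filter through the arrays in which it was high, so its difference was fixed by that choice and no fold or p is given. It is counted among the genes called higher. The common isoform COX8A differed by -0.19 in the combination and -0.21 with CHR-3996 and was not called.

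COX6A1 (200925_at, chromosome 12), the common isoform of its subunit, measured 12.98, 12.86 and 12.90 in combination arrays, 12.83, 12.94 and 12.90 in CHR-3996 arrays, 12.52, 12.64 and 12.59 in tosedostat arrays and 12.44, 12.52 and 12.58 in untreated arrays. It was higher in every array with CHR-3996, by 0.40 (SE 0.09, adjusted p = 0.00459) in the combination and 0.38 (SE 0.09, adjusted p = 0.00644) with CHR-3996, calls that were not made with equal array medians. Its muscle isoform COX6A2 differed by 0.21 and 0.07 and was not called. COX4I1 differed by 0.00 with CHR-3996 (95% interval -0.21 to 0.21), and its alternative isoform COX4I2, known from lung, fell by 0.39 (adjusted p = 0.0484), a call that was lost without any of 8 single arrays.

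COX7A2L, a protein of the COX7A family found in supercomplexes of complexes III and IV, rose by 0.32 in the combination (adjusted p = 0.0181), and its difference with CHR-3996 was 0.24 (adjusted p = 0.0622). COX7A2 differed by 0.13 and 0.12, and neither difference was called. The testis isoform COX7B2 was called higher with CHR-3996. It measured 4.62, 5.02 and 4.91 in CHR-3996 arrays and 3.87, 4.66 and 4.29 in untreated arrays, which overlapped. It was over the 40th percentile on 6 arrays only, all 3 of CHR-3996, 2 of the combination and 1 untreated. COX7B2 thus passed the filter mainly through the groups in which it was high, and no fold or p is given. That call was lost with quantile normalization, with equal medians, or without CHR-3996 replicate 2 or 3 or untreated replicate 1 or 3. COX6B1 and its testis isoform COX6B2 were not called, with differences between -0.07 and 0.00.

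COX7B (chromosome X) gave opposite calls from its probe sets. The brightest (202110_at) measured 12.68, 12.68 and 12.72 in combination arrays, 12.49, 12.72 and 12.64 in CHR-3996 arrays, 12.90, 12.98 and 12.90 in tosedostat arrays and between 12.92 and 13.01 in untreated arrays, a change of -0.28 (adjusted p = 0.0335) in the combination and -0.36 (adjusted p = 0.0104) with CHR-3996. The other (239252_at) measured 8.16, 7.49 and 7.56 in combination arrays, 8.30, 7.67 and 7.74 in CHR-3996 arrays, 6.88, 6.69 and 6.64 in tosedostat arrays and 6.59, 6.15 and 6.41 in untreated arrays, a rise of 1.35 (adjusted p = 0.000356) in the combination and 1.52 (adjusted p = 0.000157) with CHR-3996. No direction is given here for the gene as a whole.

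In complex V, ATP synthase, 0 of 16 genes were higher and 3 lower in the combination (18.8%, median -0.09). With CHR-3996 0 were higher and 3 lower (18.8%, median -0.12). Of all probe sets 46.1% and 45.1% were called. The c-ring, through which protons flow, is built from a protein that 3 genes encode identically after import. The changes of these genes were not tested against each other. ATP5MC1 (208972_s_at, chromosome 17) measured 12.01, 11.76 and 11.87 in combination arrays, 11.59, 11.75 and 11.69 in CHR-3996 arrays, 12.46, 12.51 and 12.34 in tosedostat arrays and 12.37, 12.39 and 12.40 in untreated arrays. The arrays with CHR-3996 lay below the others, with -0.51 (SE 0.10, adjusted p = 0.00205) in the combination and -0.71 (SE 0.10, adjusted p = 0.000212) with CHR-3996. ATP5MC2 fell by 0.31 in the combination (adjusted p = 0.0379) and by 0.36 with CHR-3996 (adjusted p = 0.0198), and the first call was lost without any of 9 single arrays, the second without CHR-3996 replicate 1 or untreated replicate 3. ATP5MC3 differed by 0.00 in both comparisons (95% interval -0.19 to 0.19 with CHR-3996), whereas another probe set (228168_at) rose by 1.05 in the combination and by 1.29 with CHR-3996.

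ATP5PB, of the stalk that holds the catalytic head, fell by 0.30 in the combination (adjusted p = 0.0352) and by 0.37 with CHR-3996 (adjusted p = 0.0138), and another probe set (243501_at) gave 0.22 and 0.11 and was not called. The first of these calls was lost without any of 7 single arrays. ATP5F1A and ATP5F1B, the alpha and beta subunits of the catalytic head, differed by -0.14 and -0.10 in the combination and by -0.11 and -0.12 with CHR-3996, and neither was called. With equal array medians 11 of the 16 genes of complex V were called lower in the combination and 12 with CHR-3996.

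**Figure D3:**
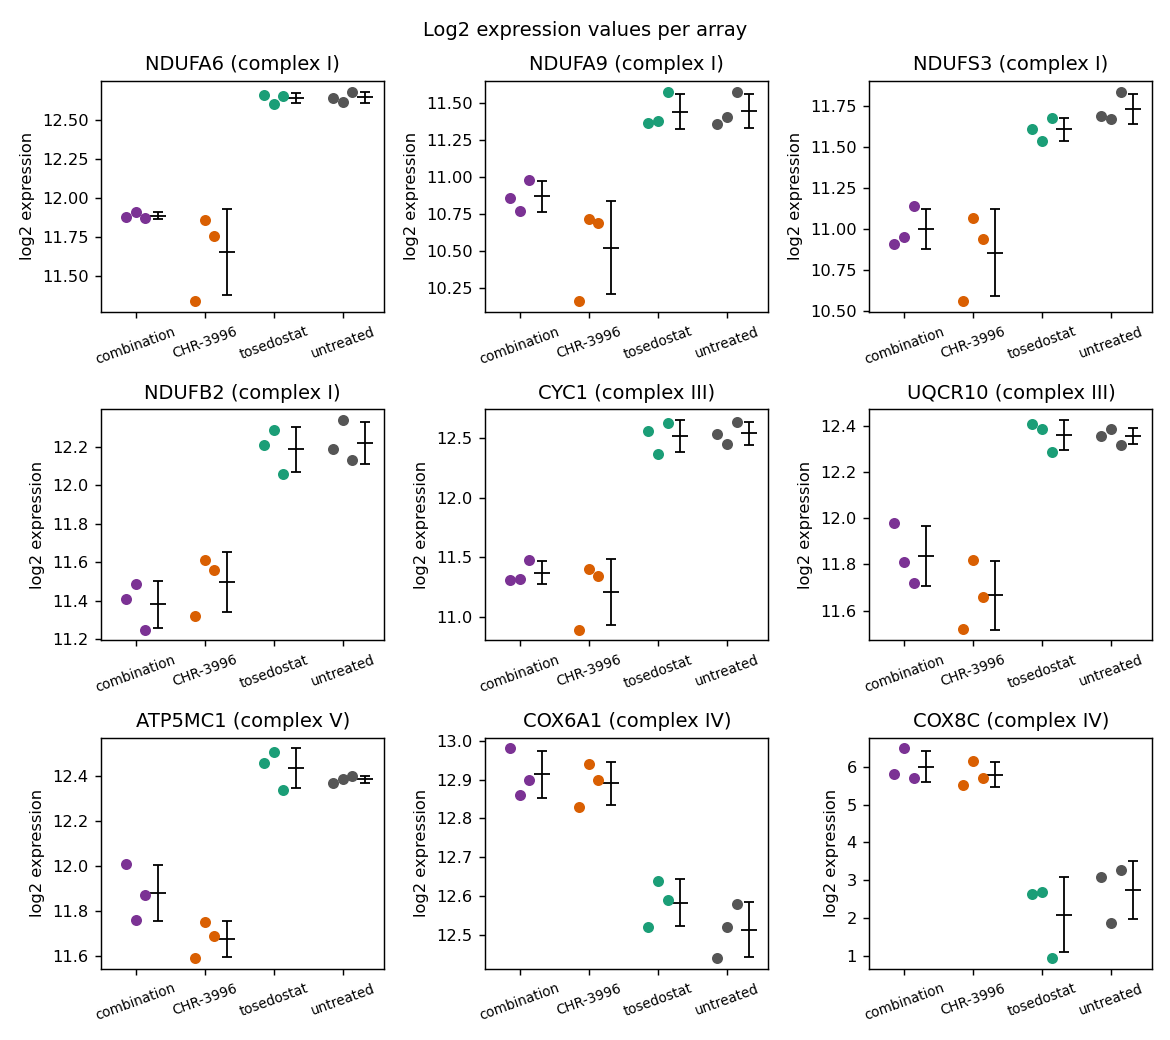
Log2 expression values of 9 subunit genes on each array (dots, replicates 1 to 3 in order within a group) with the mean and SD of the group (bar and whiskers, n = 3), for combination, CHR-3996, tosedostat and untreated arrays; vertical axes differ between panels and do not start at 0. The 7 lower genes, from NDUFA6 to ATP5MC1, and the higher COX6A1 and COX8C separate the arrays with CHR-3996 from those without it. COX8C passed the filter only through arrays with CHR-3996, so its separation was fixed by that choice. CHR-3996 replicate 1 is the lowest array in its group in each panel.

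The 3 CHR-3996 arrays differed from each other over nearly the whole set. Replicate 1 was the lowest of the 3 for 70 of the 75 genes and replicate 2 the highest for 71. The median difference of the 75 genes from the untreated mean was -0.03, -0.08 and -0.04 in combination arrays, -0.25, 0.03 and -0.11 in CHR-3996 arrays, 0.02, 0.04 and 0.03 in tosedostat arrays and -0.05, 0.02 and 0.02 in untreated arrays. The SD of these medians was 0.14 between CHR-3996 arrays, against 0.03, 0.01 and 0.04 between combination, tosedostat and untreated arrays. Over all 1075 probe sets with a mean over 12 the same difference was -0.10, 0.03 and -0.07 in CHR-3996 arrays. Without CHR-3996 replicate 1 the median fold change of the 75 genes with CHR-3996 was -0.04, with 8 genes higher and 14 lower, and without replicate 2 it was -0.16, with 3 higher and 22 lower.

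**Figure D4:**
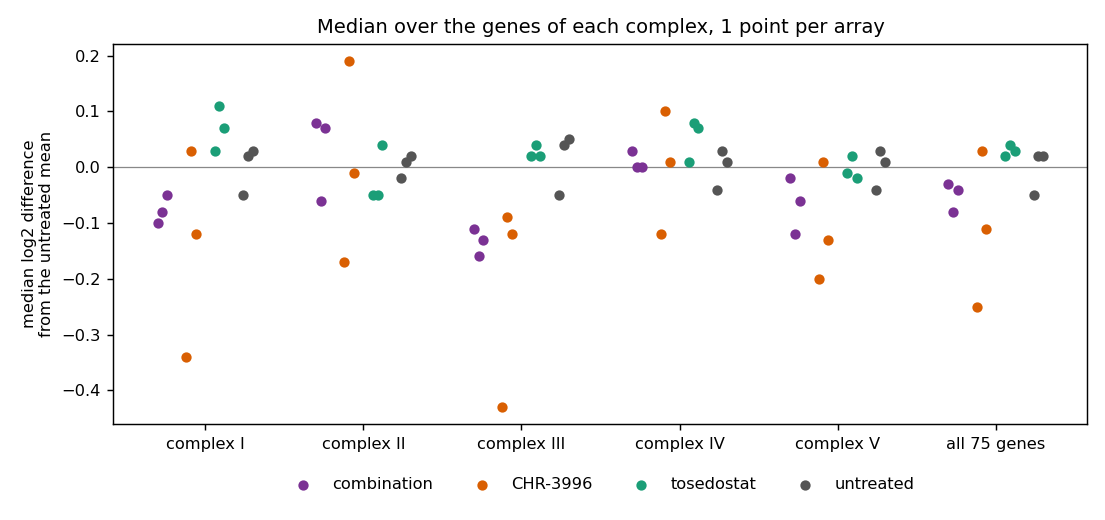
Median log2 difference from the untreated mean over the genes of each complex and over all 75 genes (vertical axis), 1 point per array in the order of the replicates, for combination, CHR-3996, tosedostat and untreated arrays. CHR-3996 replicate 1 lies lowest in complexes I to V, at -0.43 in complex III, and the 3 CHR-3996 arrays span -0.25 to 0.03 over all genes.

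No subunit gene was called between the combination and CHR-3996 alone. Between combination and CHR-3996 arrays 0 of 75 genes were called by limma in either direction, against 0.0632% of all probe sets (0.0522% higher and 0.011% lower), with 3 higher and 0 lower at an unadjusted p under 0.05, namely UQCRC2 (0.32), NDUFV3 (0.26) and NDUFA9 (0.35). The median difference was 0.06 for the members and 0.06 for all probe sets, and 65 of the 75 intervals lay within 0.5 of 0. The arrays of these groups did not overlap for 6 genes, namely NDUFA6, NDUFA9, NDUFV3, UQCRC2, ATP5F1E and ATP5MC1, while 14.7% of all probe sets did not overlap. The interaction, which asks whether the effect of the combination departs from the sum of the single effects, was called for 0 genes, against 0.206% of all probe sets (0.022% higher and 0.184% lower), and 0 had an unadjusted p under 0.05. Of its intervals 55 lay within 0.5 of 0.

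Set against tosedostat, 5 genes were higher and 12 lower in the combination, or 22.7%, against 42.1% of all probe sets, 28.4% higher and 13.7% lower. The genes higher were COX8C, which had passed the filter only through arrays with CHR-3996, COX6A1, NDUFB3, NDUFA2 and SDHA, and CYC1 (-1.15), NDUFB2 (-0.80) and NDUFB7 (-0.78) were the lowest. Between CHR-3996 and tosedostat 4 genes were higher and 19 lower, or 30.7%, against 42.9% of all probe sets, 26.3% higher and 16.6% lower. The 4 include COX8C and COX7B2, which passed the filter only or mainly through arrays with CHR-3996. CYC1 (-1.31), NDUFA6 (-0.98) and NDUFA9 (-0.92) were the lowest. With equal array medians these splits became 1 higher and 41 lower in the combination and 1 higher and 47 lower with CHR-3996, and with quantile normalization 8 and 19, and 8 and 16. The tosedostat arrays are shared by these comparisons, and the treated arrays by those against untreated cells.

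Besides the brightest probe set of each gene, 60 further probe sets of 37 genes passed the filter. In combination arrays 9 were called higher and 8 lower, and in CHR-3996 arrays 9 higher and 7 lower. Of all probe sets 46.1% and 45.1% were called. The share of all probe sets called at least 2-fold higher is not given here. A count at that threshold thus does not single out the subunits. Among the further probe sets called, 6 rose at least 2-fold in each comparison. They were probe sets of NDUFC1 (232146_at, 1.52 in the combination and 1.57 with CHR-3996), SDHC (238191_at, 1.43 and 1.54, and 232107_at, 1.32 and 1.02), UQCRB (244293_at, 1.82 and 1.97), COX7B (239252_at) and ATP5MC3 (228168_at). The brightest probe sets of NDUFC1, SDHC, UQCRB and ATP5MC3 were not called. SDHC 238191_at measured 8.61, 8.43 and 8.42 in combination arrays, 8.70, 8.59 and 8.51 in CHR-3996 arrays, 7.81, 7.70 and 7.56 in tosedostat arrays and 7.14, 7.32 and 6.71 in untreated arrays. It was the only member probe set called with tosedostat (0.63, SE 0.15, adjusted p = 0.0491), and the tosedostat arrays lay between the untreated arrays and those with CHR-3996. Which part of a transcript such a probe set reads was not examined here. In 9 genes of the 37 in the combination and 7 with CHR-3996 the brightest probe set was not called while another was, and COX7B was the only gene with calls in opposite directions.

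Genes that act around the complexes were taken from lists of assembly factors, electron carriers and coenzyme Q synthesis, the citrate cycle, regulators, and subunits encoded in mitochondrial DNA. None of their genes was called with tosedostat. Their counts stand beside 46.1% of all probe sets called in the combination and 45.1% with CHR-3996, with medians of 0.14 and 0.11. In bins of level between 8 and 12 these shares were higher, at 57.4% to 65.2% in the combination and 59.4% to 65.8% with CHR-3996. Apart from the mitochondrially encoded subunits, the lists were not matched for level, so a share over that of all probe sets does not single them out. Of 50 assembly factors 8 were higher and 19 lower in the combination (54%, median -0.04), and 6 higher and 22 lower with CHR-3996 (56%, median -0.22). BCS1L, which inserts the iron-sulfur protein into complex III, fell by 1.45 in the combination and by 1.69 with CHR-3996, and UQCC3, another complex III assembly factor, by 1.88 and 1.73. NDUFAF6, of complex I assembly, fell by 1.15 and 1.41. COX15 and SURF1, of complex IV assembly, rose by 0.92 and 0.91 in the combination and by 0.89 and 0.78 with CHR-3996, and SDHAF4, of complex II assembly, by 0.87 and 1.01.

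Of 17 genes of electron carriers and coenzyme Q synthesis 5 were higher and 5 lower in the combination (58.8%, against 46.1% of all probe sets), and 2 higher and 5 lower with CHR-3996 (41.2%, against 45.1%). PDSS1, which makes the side chain of coenzyme Q, measured 8.52, 8.63 and 8.96 in combination arrays, 8.38, 8.51 and 8.65 in CHR-3996 arrays, 10.73, 10.49 and 10.85 in tosedostat arrays and 10.96, 10.77 and 10.93 in untreated arrays. Arrays with CHR-3996 were far below the others, and PDSS1 changed by -2.18 (SE 0.15) in the combination and -2.37 (SE 0.15) with CHR-3996. ETFDH, which passes electrons from fatty acid and amino acid oxidation to coenzyme Q, rose by 1.49 and 1.23. Of the coenzyme Q genes, COQ9 fell by 0.87 in the combination and by 0.98 with CHR-3996, and COQ4 by 0.54 and 0.85. COQ8B rose by 0.66 and 0.57, and COQ10A by 0.48 in the combination, beside -0.01 with CHR-3996, and these calls were not made with quantile normalization. Cytochrome c itself (CYCS) fell by 0.35 in the combination and by 0.39 with CHR-3996.

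Of 19 citrate cycle and pyruvate dehydrogenase genes that passed the filter, of 22 listed, 5 were higher and 4 lower in the combination, and 4 higher and 5 lower with CHR-3996, or 47.4% in both, close to the 46.1% and 45.1% of all probe sets. DLAT, the acetyltransferase of pyruvate dehydrogenase, fell by 1.43 and 1.61, and IDH3G and IDH3B, of NAD-dependent isocitrate dehydrogenase, by 0.74 and 0.59 in the combination and by 0.94 and 0.80 with CHR-3996. PDK2 and PDK3, kinases that switch pyruvate dehydrogenase off, rose by 0.82 and 0.82 in the combination and by 0.75 and 0.92 with CHR-3996. IDH2 rose by 0.62 and 0.60, calls that were not made with equal array medians.

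Of 19 regulators of mitochondrial genes and of mitochondrial DNA 4 were higher and 9 lower in the combination (median -0.33), and 2 higher and 11 lower with CHR-3996 (median -0.52), or 68.4% in both, against 46.1% and 45.1% of all probe sets with medians of 0.14 and 0.11. PPARGC1A, the coactivator known to drive mitochondrial biogenesis, measured 8.84, 9.18 and 9.07 in combination arrays, 8.89, 9.78 and 9.55 in CHR-3996 arrays, 6.42, 6.99 and 6.54 in tosedostat arrays and 6.35, 6.78 and 6.28 in untreated arrays. It rose by 2.56 (SE 0.24, adjusted p = 7.41e-06) in the combination and by 2.94 (SE 0.24, adjusted p = 3.03e-06) with CHR-3996. Its relatives PPARGC1B and PPRC1 fell, by 1.52 and 1.85 in the combination and by 1.48 and 2.00 with CHR-3996. Lower too were GABPB1, which forms the GA-binding factor with GABPA (-1.43 and -1.55), NRF1 (-0.53 and -0.61) and TFAM, which packages mitochondrial DNA (-0.88 and -0.95). Higher besides PPARGC1A were TFB1M, a factor of mitochondrial ribosomal RNA methylation (0.78 in the combination and 0.39 with CHR-3996), and, in the combination, POLG2, of the mitochondrial DNA polymerase (0.43), and the nuclear receptor ESRRA (0.37). With either scaling alternative the calls of POLG2, ESRRA and, with CHR-3996, TFB1M were not made. NRF1, TFAM and ESRRA were chosen after their values were seen. Under quantile normalization the regulators counted 2 higher and 13 lower in the combination and 2 higher and 12 lower with CHR-3996. The shares of the regulators called were not matched for level.

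Of the 7 mitochondrially encoded subunits measured, 1 was higher and 1 lower in the combination (28.6%, against 46.1% of all probe sets), and 0 were higher and 1 lower with CHR-3996 (14.3%, against 45.1%). Among probe sets over 13, where 6 of the 7 lie, 15.9% and 17.4% were called. ND6 fell by 0.54 in the combination (adjusted p = 0.00503) and by 0.81 with CHR-3996 (adjusted p = 0.000363), and ND2 rose by 0.36 in the combination (adjusted p = 0.0366), a call not made with equal array medians.

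**Figure D5:**
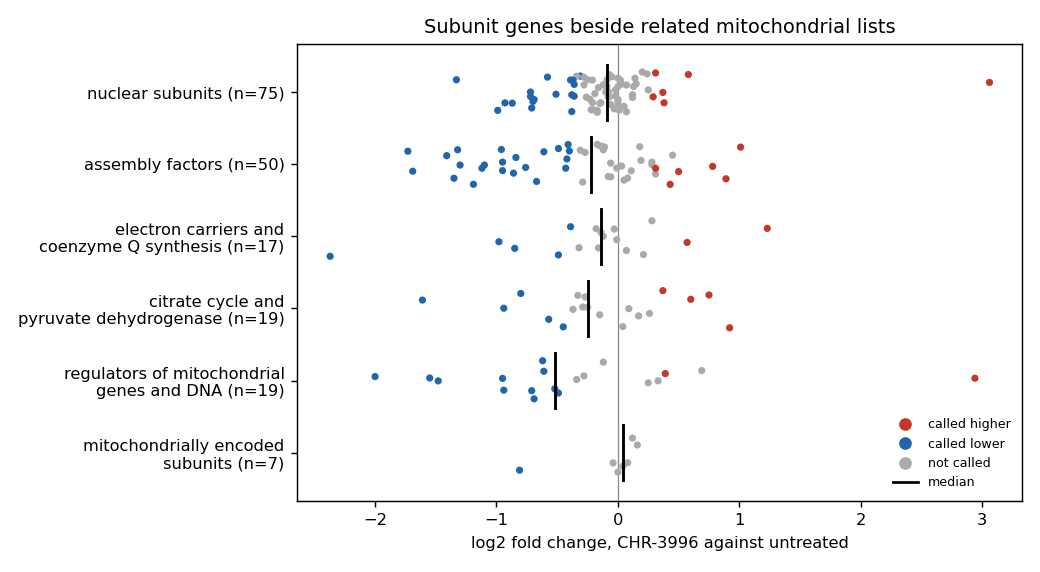
Log2 fold change with CHR-3996 against untreated cells (horizontal axis) of the 75 nuclear subunit genes and of the genes of 5 related lists, 1 point per gene with the median as a black bar; colours mark genes called at adjusted p under 0.05. The regulators have the lowest median (-0.52), with PPARGC1A at 2.94 on the right, and the subunits have a median of -0.09.

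Members of the COXFA4 family, which used to carry NDUFA names and now fall outside the symbols listed, were looked at beside complex IV. COXFA4, a constituent of cytochrome c oxidase formerly named NDUFA4, differed by 0.16 in the combination and 0.09 with CHR-3996 and was not called. COXFA4L2 rose by 0.96 in the combination (adjusted p = 0.00196) and by 0.64 with CHR-3996, and its difference with tosedostat was 0.61 (adjusted p = 0.135). COXFA4L3 (223484_at) measured 8.33, 9.45 and 8.69 in combination arrays, 7.85, 8.68 and 8.14 in CHR-3996 arrays, 2.95, 3.91 and 3.88 in tosedostat arrays and 3.89, 3.49 and 4.15 in untreated arrays. Like COX8C it passed the filter only through arrays with CHR-3996, and no fold is given. COXFA4L3 was chosen after its values were seen.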

How the data were processed

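RNA from H929 cells was labelled in a 2-cycle reaction and hybridised to Affymetrix U133 Plus 2.0 arrays, 3 per group. The deposited log2 values, 1 per probe set and array, were made by the authors in dChip, and its version is not given in the sources used here. Of 54675 probe sets 62 controls were left out, and a probe set was kept if at least 3 arrays had it over their own 40th percentile, which left 36395. The platform annotation gave 1 symbol to 29161 of these, several to 1365 and none to 5869. A gene was represented by its brightest kept probe set.

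Group means over all 12 arrays were fitted with limma 3.58.1 in R 4.3.3 (8 residual degrees of freedom), and p-values were adjusted by Benjamini-Hochberg within each comparison over all kept probe sets. The fit was also run on simulated data with independent noise and few probe sets changed, which differs from these data. That run cannot speak to how the arrays were scaled or to shifts of a whole array. The number of arrays limits the precision. Tables and figures were made with Python 3.11.15, pandas 2.3.3 and matplotlib 3.10.9. Promoters came from RefSeq (GRCh38.p14).

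Genes were named where they were the most changed in their complex or list (up to 3 each way), belonged to complex II or to an isoform pair, or had probe sets called in opposite directions. Other genes named beside them, such as NDUFAB1, NDUFB10, NDUFS6, NDUFS7, NDUFV3 and CYCS, were chosen after their values were seen. Members and lists were chosen with earlier results of these data known. The alternatives tried were equal array medians, quantile normalization, the 60th percentile or no filter, the replicate block, trended and robust variances, the compared groups only, the mean of a gene's probe sets, the brightest probe set without an _s or _x suffix, the methods' fold and difference criteria, and leaving out each array. Deviations of arrays with the same replicate number correlated with r between 0.036 and 0.288, and at or under 0.1 in some pairs with untreated arrays.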

Additional observations from a re-analysis of the deposited data

How the results depend on the processing

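Setting arrays to equal medians gave 1 gene higher and 38 lower in the combination (median -0.30), 1 and 45 with CHR-3996 (median -0.31), 1 and 41 for the combination against tosedostat (median -0.33) and 1 and 47 for CHR-3996 against tosedostat (median -0.36). With quantile normalization 22 genes were lower in the combination, 8 higher and 19 lower for the combination against tosedostat, and 8 higher for CHR-3996 against tosedostat, with a median of -0.04 there. The mean of a gene's probe sets gave 12 higher in the combination, 13 with CHR-3996, and 9 and 9 for the combination and CHR-3996 against tosedostat. Probe sets without an _s or _x suffix gave 8 and 7 higher against tosedostat, and 1 higher for tosedostat itself. The methods' criteria gave 0 higher and 1 lower in the comparisons of the combination and of CHR-3996 with untreated and with tosedostat arrays. Without a filter 3 genes were higher with CHR-3996, and with the compared groups only 3 were higher and 10 lower, and 2 higher against tosedostat. The cause of these changes was not tested, and the shares of all probe sets called under these settings are not given here.

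Leaving out 1 array at a time, genes higher numbered 3 to 8 in the combination and 3 to 8 with CHR-3996, and genes lower 10 to 18 and 14 to 22. The medians spanned -0.09 to -0.03 in the combination and -0.16 to -0.04 with CHR-3996. Against tosedostat, 2 to 5 were higher and 10 to 18 lower in the combination (median -0.10 to -0.08), and 1 to 5 higher and 14 to 24 lower with CHR-3996 (median -0.23 to -0.06). The fewest were 2 without combination replicate 1 or tosedostat replicate 1, and 1 without tosedostat replicate 1. The median spanned -0.01 to 0.13 for the combination against CHR-3996 and -0.05 to 0.10 for the interaction, and tosedostat alone gave 0 calls each time.

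With the replicate block, 8 genes were higher and 14 lower in the combination, 6 and 19 with CHR-3996, 6 and 13 for the combination against tosedostat and 5 and 20 for CHR-3996 against tosedostat. The labels do not say what a number marks, and the pairing was not borne out in every pair of groups.

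Of 4546 values of named genes under alternatives, 4243 kept direction and call, 218 lost the call, 72 gained one and 13 changed sign. With the mean of probe sets COX7B became 0.53 in the combination, 0.58 with CHR-3996, and 0.38 and 0.43 against tosedostat, and ATP5MC3 0.37 and 0.45 against tosedostat. Without _s and _x probe sets ATP5PB became 0.22 in the combination and 0.11 with CHR-3996, UQCR10 0.13 in the combination, and 0.22 and 0.09 for the combination and CHR-3996 against tosedostat, and SDHC 0.91 for CHR-3996 against tosedostat. With equal medians ATP5MC3 became -0.24 in the combination.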
